A study of Mus musculus with 4 samples.

Results

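Neuronal genes known as targets of the repressor REST, together with Rest itself, make up a group of 32 protein-coding genes of the 21755 on the mouse autosomes and X. They were chosen by name, as textbook targets, with earlier results of these data known. DNase-seq, in which the nuclease DNase I cuts open chromatin and the cut ends are sequenced, had been run on mouse acute myeloid leukemia cells, a cancer of immature myeloid blood cells. Per the labels these were in vitro differentiated cells of the C57BL/6J strain, with 2 biological replicates of 2 libraries each, and the labels state no treatment, control, age or sex. The authors pooled the libraries of a replicate, so each replicate has 1 list of 150 bp peaks and 1 list of hotspots, which are wider regions of enrichment. The labels give the replicates separate biosamples under 1 donor identifier, and say nothing more of how the cultures were derived.

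REST is a zinc finger protein that binds an element called RE1 and recruits corepressors that carry histone deacetylases and demethylases. In cells outside the nervous system it keeps many genes for neurotransmitter release, receptors, channels and the neuronal cytoskeleton silent. DNase-seq reads accessibility of DNA, and neither expression, REST binding nor repression was measured here.

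RE1 was searched on both strands as TTCAGCACCNNGGACAGCGCC, with at most 3 mismatches to its 19 fixed letters. The elements below come from the windows of the members, each spanning the gene with 20 kb of flank at both ends. They are examples from the 23 matches found, shown so that elements inside and outside peaks can be read letter by letter. Elements at Slc18a3, Chrm4, Mapk11, Syn1, Syp, Grin2a, Tubb3 and Scn2a are among those not printed, so the examples allow no general comparison. Each is written 5′ to 3′ on its own strand from the RefSeq assembly GRCm38.p6, the build that the files call mm10, and capitals mark letters that differ from the motif. A shared peak is a replicate 1 window that overlaps a replicate 2 window by at least 1 bp. An element is counted in a peak when its middle base lies in the window, which for a shared peak is the replicate 1 window. The first 9 lie in a shared peak.
Stmn2: ttcagcaccacggacagcgcT
Chga promoter: ttcagcacctcggacagcAcc
Chga upstream: ttcagGaccacggacagcgAc
Chgb: ttcagcaccccggacagcTcc
Snap25: ttcagcaccgcggacagcgAT
Glra1: ttcagcaccacggaGagcgTc
Kcnh2: ttcagcacctcggacagAgGc
Nefm: GGcagcaccaaggacagcgcc
Celsr3: ttcagcaccgtggGcagcAcT
The next 2 overlap the replicate 2 window of a shared peak and lie just outside its replicate 1 window.
Vgf: ttcagcacGctggacagcgcc
Grin1: ttcagcacctcggacagcAcc
The last 2 lie in no peak of either list.
Bdnf: ttcagcaccttggacagAgcc
Gria2: ttTagcaccgcggacagcgcT

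The Grin1 element and the Chga promoter element are the same in all 21 letters. The Chga one lay in the windows of both lists, and the Grin1 one in the replicate 2 window and in hotspots of both lists. The Bdnf element differs from the motif at 1 fixed letter, C18A, counted from 1 at the 5′ end, and lay in no peak. Among the members, 4 of 8 elements with 1 mismatch (50%), 5 of 9 with 2 (55.6%) and 4 of 6 with 3 (66.7%) lay in a shared peak. In the rest of the genome the shares were 59.3% with 1 mismatch, 45.5% with 2 and 18.2% with 3.

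The replicate 1 peak list held 236215 peaks on the chromosomes used and the replicate 2 list 67438, and 61768 replicate 1 peaks were shared. Read depth is unknown. The authors' peak score has median 74 in replicate 1 and 35 in replicate 2, and its computation and scaling are unknown, so scores serve only to describe peaks and to rank them within their own list. The cells carried open promoters at 8 of 8 myeloid markers, led by Spi1 (150 in replicate 1 and 94 in replicate 2) and Cebpa (148 and 97). Of 9 markers of other cell types, 2 had a shared promoter peak, Col1a1 (132 and 64) among them, and Cd4 and Cd79a were among the 5 with no promoter peak. The part of other cells in the results below was not tested.

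Promoters, within 1 kb of any annotated start, were open in both lists for 20 of 32 members (62.5%, exact binomial 95% interval 43.7 to 78.9), against 58.2% of all protein-coding genes. The replicate 1 list, shared or not, had a promoter peak at 27 members (84.4%), against 71.1% of all genes. The replicate 2 list had one at 20 members (62.5%), against 58.8% of all genes. No promoter peak was found in either list for 5 members (15.6%, interval 5.28 to 32.8), against 28.8% of all genes. The shares with a shared peak lie near those of all genes, so the promoters of these neuronal genes were open about as often as a protein-coding promoter in general. The intervals cover counting error only and treat genes as independent.

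**Figure D1:**
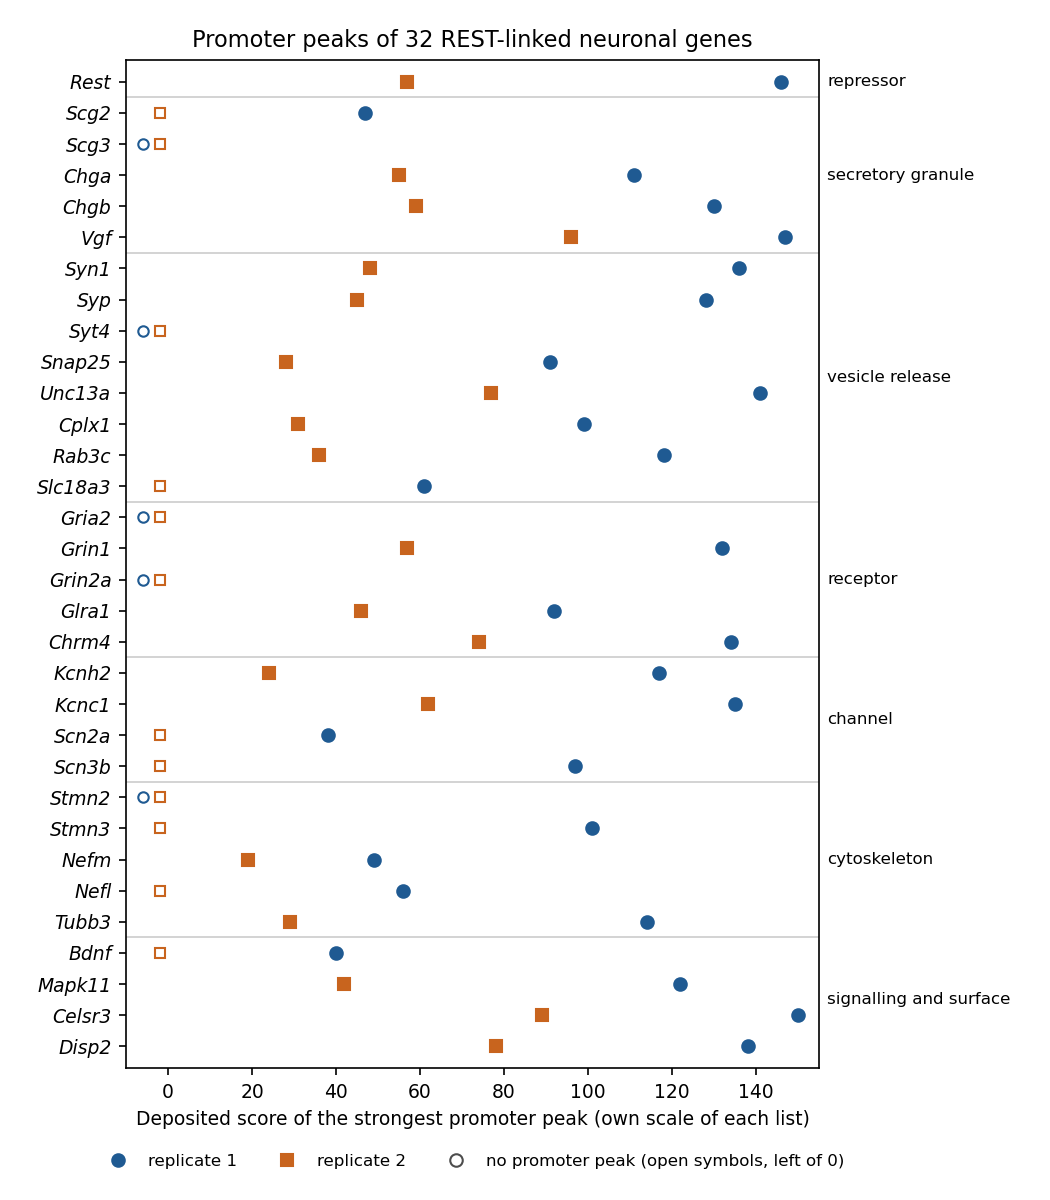
Deposited score of the strongest promoter peak of each member gene (x axis, on the separate scale of each list) by gene (y axis), grouped by role, for replicate 1 (circles) and replicate 2 (squares); open symbols left of 0 mean no promoter peak. Of 32 members, 20 have both symbols filled, 7 have only the replicate 1 symbol filled and 5 have none.

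Rest, the repressor, had 3 shared promoter peaks, the strongest 146 in replicate 1 and 57 in replicate 2 at chr5:77265256-77265405, which is 160 bp upstream of a start. Its window held no RE1 match with at most 3 mismatches. The gene for the factor is thus open in both lists. All 23 genes for REST corepressors and regulators also had a shared promoter peak, led by Smarca4 (150 and 108), a chromatin remodelling ATPase, and Sin3a (150 and 107), a scaffold for histone deacetylases. In the windows of Cdyl and Usp7, named after their values were seen, an RE1 match was present, and it lay in no shared peak.

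Among the 5 secretory granule genes, whose products fill dense-core vesicles, 3 had a shared promoter peak. Chga, which encodes chromogranin A, scored 111 and 55 at chr12:102555136-102555285, and that peak holds its promoter element. A second element 4265 bp upstream of its start lay in a shared peak of 109 and 54. Chgb, which encodes chromogranin B, scored 130 and 59 at chr2:132781716-132781865, 512 bp downstream of its start, in the same peak as its element. In both genes the only shared promoter peak is the one that contains RE1.

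Vgf, which encodes a neuropeptide precursor, had a stronger shared promoter peak than Chga and Chgb in both lists, 147 and 96, at the 97.4th percentile of the replicate 1 list and the 97.8th of the replicate 2 list. Its element, 11 bp upstream of a start, lay 53.5 bp from the centre of the replicate 2 peak and 93.5 bp from that of the replicate 1 peak, so it fell within the first window and outside the second. Scg2, the precursor of secretoneurin, had a promoter peak of 47 in replicate 1 and none in replicate 2. Scg3, a granule protein that binds chromogranin A, had none in either list. Neither Scg2 nor Scg3 had an RE1 match in its window.

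Of the 8 vesicle release genes, 6 had a shared promoter peak. Syn1, a synaptic vesicle phosphoprotein, scored 136 and 48, and Syp, the vesicle membrane protein synaptophysin, 128 and 45. The element of Syn1 lay 109.5 bp from the peak centre in both lists, and that of Syp 96.5 bp away in replicate 1 and 116.5 bp in replicate 2. Both elements are therefore beside the peak and outside its window, though inside hotspots of both lists.

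Snap25, a SNARE protein of the fusion machinery, scored 91 and 28 in its only shared promoter peak, which holds its element 870 bp downstream of a start. The peak at the start of Snap25 was weaker, 37 in replicate 1, and was absent from the replicate 2 list. Unc13a, a priming factor for vesicles, scored 141 and 77 and had 12 shared peaks outside promoters, the highest count among the members. The strongest of these 12 lies nearest the start of another gene, Colgalt1. Cplx1, the SNARE-binding protein complexin 1, scored 99 and 31. Rab3c, a vesicle GTPase, scored 118 and 36. None of Unc13a, Cplx1 and Rab3c had an RE1 match.

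Slc18a3, the vesicular acetylcholine transporter, had a promoter peak in replicate 1 alone, at 61. Its element, at -2942 bp from the start, lay in a shared peak of 97 and 32 at chr14:32467716-32467865, nearer to the start of Chat (1803 bp), the choline acetyltransferase gene of the same locus. Syt4, a synaptotagmin, had no promoter peak, and its RE1 match lay in no peak and no hotspot.

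Of the 5 receptor genes, 3 had a shared promoter peak. Grin1, the obligatory subunit of NMDA receptors, scored 132 and 57, and its element lay 26.5 bp from the centre of the replicate 2 peak and 86.5 bp from that of the replicate 1 peak. Glra1, a glycine receptor subunit, scored 92 and 46 at chr11:55607856-55608005, in the peak that holds its element. Chrm4, a muscarinic acetylcholine receptor, scored 124 and 74 at a peak 782 bp downstream of its start. Its elements, 5906 and 5264 bp upstream, lay in shared peaks of 118 and 44, and of 129 and 47. The receptor genes thus include elements open at the promoter and elements open several kilobases away.

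Gria2, an AMPA receptor subunit, and Grin2a, another NMDA receptor subunit, had no promoter peak. The Gria2 window of 161386 bp held no peak of either list outside promoters, and the Grin2a window of 467663 bp held 1, in replicate 1. Their RE1 matches, the Gria2 one 164 bp upstream of a start and the Grin2a one in an intron, lay in no peak and no hotspot. The nearest replicate 1 peak was 155772 bp from the Gria2 element.

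Of the 4 channel genes, 2 had a shared promoter peak. Kcnh2, the potassium channel of the rapid delayed rectifier current, scored 117 and 24 at an internal start. At its 5′ end 3 peaks were listed in replicate 1 alone, the strongest at 95. Its element lay 6015 bp upstream, at chr5:24357609-24357629 on the minus strand, in a shared peak of 130 and 60. Kcnc1, a voltage-gated potassium channel, scored 135 and 62 without an RE1 match. Scn3b, a sodium channel beta subunit, had promoter peaks of 97 and 61 in replicate 1 alone.

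Scn2a, a voltage-gated sodium channel, had promoter peaks of 38 and 37, both in replicate 1 alone. The weaker one, at the 4.48th percentile of that list, holds its element, which differs from the motif at 1 letter, G19A. The element of Kcnh2 was thus open in both lists and that of Scn2a only in the longer one, at a low rank.

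Of the 5 cytoskeleton genes, 2 had a shared promoter peak. Tubb3, a neuronal tubulin, scored 114 and 29. Its RE1 match, in an intron, overlaps the edge of a replicate 1 peak of 62. The middle base of the match lay 75.5 bp from the centre of that peak, just outside the window, so the match is counted in no peak. Nefm, the medium neurofilament subunit, scored 49 and 19 in a peak 904 bp upstream of its start, the lowest scores among the 20 members' strongest shared promoter peaks. That peak, at chr14:68125676-68125825, holds its element, and the 2 other promoter peaks of Nefm scored 36 each in replicate 1 alone. Nefl, the light neurofilament subunit beside it, had promoter peaks in replicate 1 alone, up to 56.

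Stmn2, which encodes the microtubule regulator stathmin 2, had no promoter peak in either list. Its only shared peak in a window of 92247 bp was the one over its element, 1120 bp upstream of the start and so just outside the promoter, with scores of 53 and 20. The element, at chr3:8508230-8508250 on the plus strand, lay 9.5 bp from the peak centre in both lists. Stmn3, a related stathmin, had a promoter peak of 101 in replicate 1 alone. The 150 bp peak window of Stmn2 and that of the upstream Chga element, chr12:102550656-102550805, are shown on the plus strand with the element in capitals, because each is a shared peak outside promoters whose centre is near RE1.
Stmn2 peak: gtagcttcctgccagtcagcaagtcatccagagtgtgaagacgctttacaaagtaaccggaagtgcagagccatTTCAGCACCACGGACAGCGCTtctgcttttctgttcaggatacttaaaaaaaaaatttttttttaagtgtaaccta
Chga upstream peak: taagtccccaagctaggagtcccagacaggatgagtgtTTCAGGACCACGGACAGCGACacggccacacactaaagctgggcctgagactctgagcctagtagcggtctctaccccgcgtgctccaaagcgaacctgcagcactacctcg

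Of the 4 signalling and surface genes, 3 had a shared promoter peak. Celsr3, an adhesion receptor of planar cell polarity, had 4 shared promoter peaks, the strongest 149 and 89 near an internal start. The one with its element, at chr9:108825896-108826045, scored 130 and 50. Mapk11, a p38 kinase, scored 122 and 42 at an internal start, and its element lay in a weaker shared peak of 105 and 37, 602 bp upstream of its 5′ end. Disp2, a relative of the Hedgehog release protein Dispatched, scored 138 and 78 at its start without an RE1 match. Bdnf, a neurotrophin, had promoter peaks of 40 and 38 in replicate 1 alone. Its element lay 17955.5 bp from the nearest replicate 1 peak and in no hotspot.

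**Figure D2:**
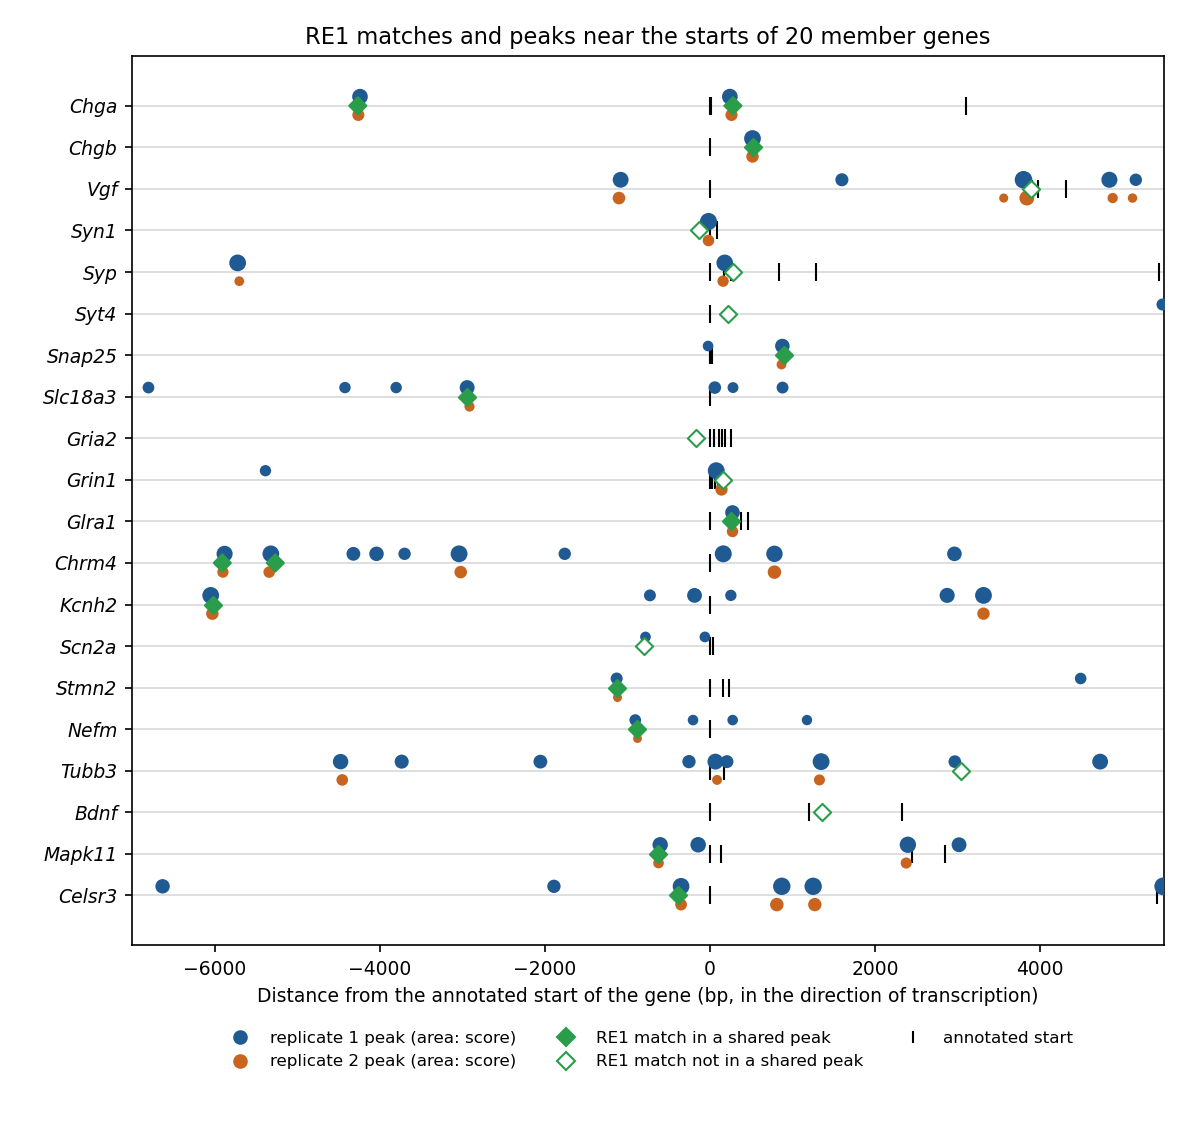
RE1 matches (diamonds, filled where they lie in a shared peak) and peak centres of replicate 1 (upper circles) and replicate 2 (lower circles, area by score) by distance from the annotated gene start in bp, for 20 of the 21 members with a match; ticks are annotated starts, and Grin2a is left out because its match is 142420 bp into the gene. Filled diamonds at Stmn2, Slc18a3, Kcnh2 and Chrm4, and 1 of the 2 at Chga, lie upstream of the promoter. Gria2 and Bdnf have a match and no peak in the range drawn.

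In all, 21 of 32 members had at least 1 RE1 match in the window (65.6%), against 5.91% of all protein-coding genes. An RE1 match in a shared peak was present for 11 members (34.4%, interval 18.6 to 53.2), against 2.04% of all genes. Members were picked as known REST targets, so neither share is independent evidence about REST. The 11 are Chga, Chgb, Snap25, Slc18a3, Glra1, Chrm4, Kcnh2, Stmn2, Nefm, Mapk11 and Celsr3. Of the 7 with a match in a shared promoter peak, 5 had no other shared promoter peak, namely Chga, Chgb, Snap25, Glra1 and Nefm.

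Of the 23 matches in member windows, 13 lay in a shared peak (56.5%, interval 34.5 to 76.8), against 362 of 1273 in the rest of the genome (28.4%, interval 26 to 31). Over the whole genome, members included, the share was 375 of 1296 (28.9%). Counting elements within 100 bp of a shared peak gave 17 of the members' matches, against 31.2% of all matches in the genome. Hotspots of both lists also held 17, against 33.4% of all matches, and Vgf, Grin1, Syn1 and Syp are the members added. With at most 2 mismatches the shares were 9 of 17 for members (52.9%) and 206 of 418 for the rest of the genome (49.3%). With 3 mismatches they were 4 of 6 for members (66.7%, interval 22.3 to 95.7) and 156 of 855 for the rest (18.2%). The gap between members and the rest was thus larger among matches with 3 mismatches, of which members had 6. At promoters of coding genes, 7 of 15 member matches lay in a shared peak (46.7%), against 82 of 189 in the rest (43.4%). Outside promoters the shares were 6 of 8 (75%, interval 34.9 to 96.8) and 280 of 1084 (25.8%). Promoters held 15 of the 23 member matches and 189 of the 1273 others, so the 56.5% and 28.4% compare sets of unlike location. Outside promoters the sets are unlike too. Member matches come only from gene windows, and the 6 in a shared peak lay 1120 to 6015 bp from a start of their gene. The others come from anywhere in the genome, however far from a gene, so the 75% and 25.8% show no trait particular to members. When the replicate 1 list was shortened to the 67438 strongest peaks, the length of the other list, 8 of the members' matches in 6 members stayed in a shared peak, against 12.6% of all matches.

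**Figure D3:**
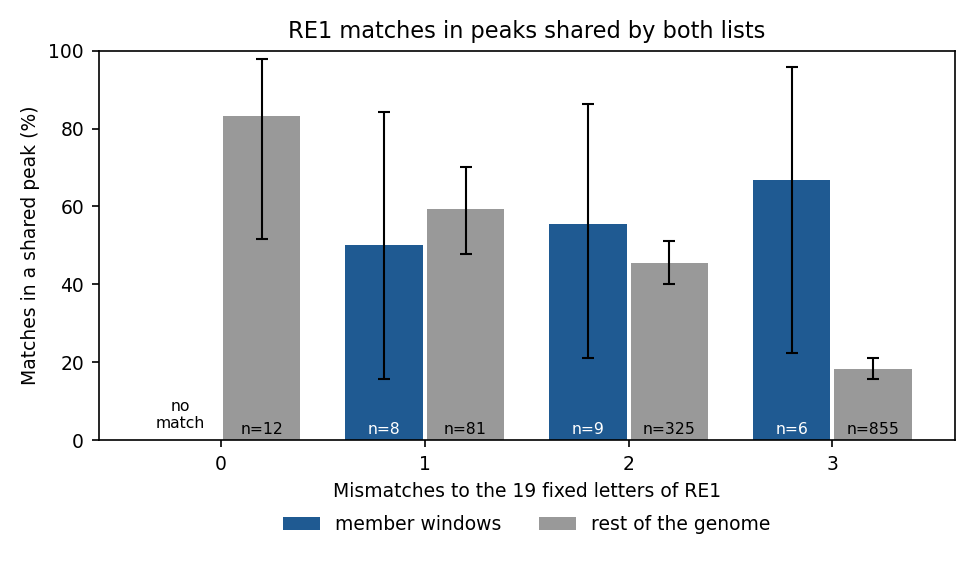
Share of RE1 matches in a peak shared by both lists (y axis, percent, from 0) by number of mismatches to the 19 fixed letters (x axis), for member windows (left bars) and the rest of the genome (right bars), with exact binomial 95% intervals. In the rest of the genome the share is 83.3% with no mismatch and 18.2% with 3, while member bars lie at 50%, 55.6% and 66.7% for 1, 2 and 3 mismatches with wide intervals.

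Across the genome the share of matches in a shared peak was 10 of 12 with no mismatch, 52 of 89 with 1, 153 of 334 with 2, 160 of 861 with 3 and 152 of 4921 with 4 (3.09%). None of the 12 perfect matches lay in a member window. Member matches used 8 sites with 1 mismatch, 9 with 2 and 6 with 3. Among the 22 member elements read here, G19A and C21T occurred in 5 each, and C18A and T2C in 4 each. Over the genome, position 18 matched the motif in 76.5% of the 375 matches in a shared peak and in 55.5% of the 676 matches in no peak, whereas position 20 did so in 68.8% and 82.8%. These are shares among sequences that all had at most 3 mismatches, so the positions are not independent.

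Member windows held 11 matches with exactly 4 mismatches. Of these, Scn3b and Stmn3 each had a match in a replicate 1 promoter peak, 63 and 289 bp downstream of a start. The peak scored 61 for Scn3b, the weaker of its promoter peaks, and 101 for Stmn3. Vgf and Celsr3 each had one in a shared peak, scored 117 and 33 for Vgf and 143 and 74 for Celsr3. The other 7, at Rest, Scg3, Rab3c, Mapk11, Disp2 and 2 places in Grin2a, lay in no peak. Such loose matches are frequent and seldom open in this genome, as the 3.09% above shows, so they are only listed here.

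Where a peak was near, its centre was usually close to the match. Of the 23 member matches, 19 had a replicate 1 peak centre within 300 bp, at a median of 27.5 bp, and 17 had a replicate 2 one, at 17.5 bp. Of all 1296 matches, 678 did in replicate 1, at a median of 17.5 bp, and 426 in replicate 2, at 14.5 bp. The medians are over the matches within that distance. The 13 member peaks over an element had median scores of 109 (49 to 130) in replicate 1 and 46 (19 to 60) in replicate 2. All 353 shared peaks with a match had medians of 95 and 32, and all 61768 shared peaks had 123 and 36. Shared peaks at promoters had medians of 139 and 56 and those outside promoters 116 and 32. The members' median was thus below that of all shared peaks in replicate 1 and above it in replicate 2. Of the member peaks over an element, 7 lay at promoters and 6 outside, so these sets differ in location. Among all shared peaks with a match, the medians were 110 and 39 for the 84 at promoters and 94 and 30 for the 269 outside.

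For the GC box, ETS and CTCF motifs, the shares at all promoter peaks lay within the counting intervals of the member shares. The GC box GGGCGG, searched on both strands, was in 14 of 33 member shared promoter peaks (42.4%), against 44.9% of 19651 such peaks of all genes. The ETS motif CCGGAAGT was in 1 (3.03%), against 4.37%, and the CTCF motif CCNNNAGGNGGC in 2 (6.06%), against 5.39%. RE1 was in 7 (21.2%, interval 8.98 to 38.9), against 0.427%, a share that the choice of members as REST targets makes uninformative. Outside promoters the GC box was in 11 of 62 member shared peaks (17.7%, interval 9.2 to 29.5), against 8.09% of 42117, and the CTCF motif in 7 (11.3%), against 10.8%. RE1 and ETS matches were in 6 (9.68%) and 1 (1.61%) of the 62, against 0.639% and 0.855%. The single ETS match outside promoters is the ccggaagt in the Stmn2 window shown above. A match is a description of letters, and binding was not measured.

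Outside promoters, 22 of 32 members had at least 1 shared peak in the window (68.8%, interval 50 to 83.9), against 68.9% of all genes. The 62 shared peaks in 2946548 bp of member windows gave 2.1 per 100 kb (exact Poisson 95% interval 1.61 to 2.7), against 2.24 in all coding windows. The density was 7.67 in the replicate 1 list alone and 2.21 in the replicate 2 list alone, against 10.1 and 2.38 in all coding windows. The windows of these genes were thus about as rich in shared peaks as those of other genes, and poorer than them in replicate 1 peaks. After Unc13a, Rab3c, Glra1 and Kcnh2 had 5 shared peaks each, and the median over members was 1, the same as over all genes. The strongest outside peaks of Rab3c and Glra1 lie nearest the starts of Pde4d and G3bp1. Scg2, Chgb, Syn1, Syt4, Snap25, Gria2, Grin2a, Scn2a, Scn3b and Bdnf had none.

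Another list held neuronal genes chosen without regard to RE1. Of its 26 genes, 12 had a shared promoter peak (46.2%) and 7 had no promoter peak. Ncam1, a neural adhesion molecule, scored 144 and 81, and Mapt, the tau gene, 127 and 72, while Dcx and Elavl4 had none. Of these 26 genes, 8 had an RE1 match in the window, against 5.91% of all protein-coding genes. Of the 8, 6 had one in a shared peak, Dcx among them, against 11 of the 21 members with a match. Over all genes, 444 of the 1286 with a match had one in a shared peak. An RE1 match in a shared peak was thus not particular to the members. The difference of 62.5% and 46.2% between members and these genes was not tested.

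**Figure D4:**
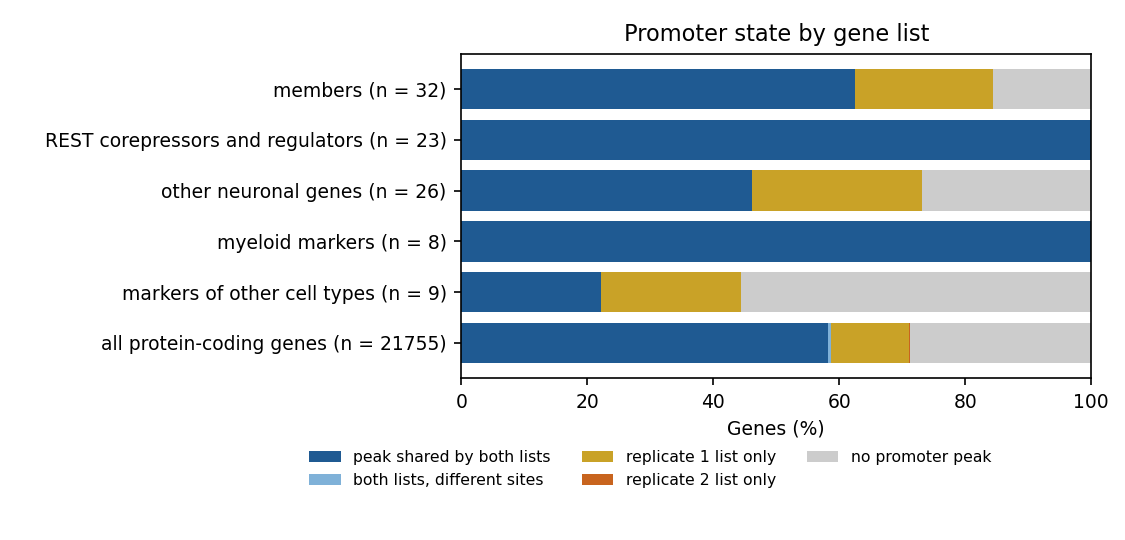
Share of genes (x axis, percent) by promoter state, stacked, for the members, REST corepressors and regulators, other neuronal genes, myeloid markers, markers of other cell types and all protein-coding genes, with the number of genes in brackets. A shared promoter peak is present for 62.5% of members, 46.2% of other neuronal genes and 58.2% of all genes, and for every gene of the corepressor and myeloid lists.

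GC content and the CpG ratio were compared between promoter states. In the 300 bases from 250 before to 50 after the annotated start, GC content had a median of 61% in members and 55% in all genes. Each gene has 1 such value, whereas its promoter state counts peaks at any annotated start, for Kcnh2 an internal one. GC content and state can therefore come from different starts of a gene. The members with a shared promoter peak had a median of 62.2%, those with a replicate 1 peak alone 57.3% and those with none 55.7%. The same medians over all genes were 59.7%, 54% and 46%. Members without any promoter peak thus had a higher GC content than genes without one in general, over only 5 genes, and its part in the result was not tested. The median ratio of observed to expected CpG was 0.698, 0.467 and 0.741 in members with a shared peak, a replicate 1 peak alone and none, against 0.737, 0.365 and 0.166 in all genes. In members the ratio therefore did not follow the order of the GC medians.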

How the data were processed

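Biological replicates of mouse acute myeloid leukemia cells were profiled, each as a pool of libraries. The authors deposited 1 peak list and 1 hotspot list per replicate on mm10, per the labels and the files that accompany the samples. The deposited peak score is a whole number of unstated computation. The deposited hotspots carry a −log10 q value with a ceiling of 100. Depth is unknown and no read counts were used, so intervals (exact binomial and Poisson, 95%) cover counting error only. No source used here names the caller or its settings.

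Genes are from GENCODE M21, promoters are within 1 kb of any annotated start, and windows span each gene with 20 kb of flank at both ends. Genes on the autosomes and X were used, while the lists and the RE1 matches of the genome were counted on the autosomes, X and Y. RE1 was scanned in the genome with Python 3.11.15, numpy 2.4.6 and pandas 2.3.3, and overlaps and the scan were tested on simulated data. No test was made: with 1 list per replicate and no condition, counts are set beside those of all coding genes. The members and gene lists were chosen with earlier results of these data known. Every member is accounted for, and of the other lists the 2 strongest genes by mean promoter rank and the first 2 in alphabetical order without a promoter peak are named, except 1 gene that is not reported here. Alternatives were other promoter and gene windows, overlap rules, score thresholds, lists of equal length, hotspots, other mismatch limits and each replicate alone. One element on a chromosome whose sequence is not reported here was counted and not printed.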

Additional observations from a re-analysis of the deposited data

How the results depend on the processing

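The count of 20 of 32 members with a shared promoter peak (against 58.2% of all genes) ran from 15 to 27 over the alternatives. It was 15 with peaks at or above the median score (against 51.8%) and 27 with replicate 1 alone (against 71.1%). Lists of equal length gave 16 (against 54.9%) and windows of 500 bp gave 17 (against 56.1%). The count ran from 20 to 27 with either replicate left out. At 15, 16 and 17 the member share lay below that of all genes. In the main setting it lay above, so this order depends on the setting. The density of 2.1 shared peaks per 100 kb outside promoters became 2.99 when only the members' own promoters were left out (3.62 in all coding windows), 1.22 with peaks at or above the median score (1.02) and 1.8 with lists of equal length (1.63), so the order of members and all genes depends on the setting. It lay at 2.21 and 7.67 with replicate 1 and replicate 2 left out. The 13 RE1 matches in shared peaks became 8, and the 11 members with one became 6, with lists of equal length. With a replicate left out these were 14 to 15 matches and 12 to 13 members. The genome share of 28.9% became 49.4% with at most 2 mismatches, 8.48% with at most 4, 12.6% with lists of equal length and 33.4% with hotspots, and 30% to 46.4% with a replicate left out. These move because the alternatives change which peaks or matches are counted. No paired analysis was possible because no test was made and each replicate has 1 list. Small counts limit what can be said: 23 member matches give an interval of 34.5 to 76.8%, and unknown depth means that a missing replicate 2 peak is not evidence of closed chromatin.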
